A study of Mus musculus with 8 samples.

Results

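Mouse embryoid bodies at day 9 were examined for 10 early genes, of the primed epiblast or of the primitive streak, taken by symbol: Otx2, Dnmt3b, Fgf5, Fgf8, Pou3f1, T, Eomes, Mixl1, Gsc and Foxd3. They are 10 of 52281 named loci in the deposited table. The question was how much early embryonic expression was left at day 9 in each set of cultures. Embryoid bodies are floating clumps of embryonic stem cells that form germ layer derivatives in culture. There were 8 RNA-seq libraries in 4 groups of 2, all labelled with the C57BL/6 background and grown with serum. The groups were the Prdm16 control (genotype WT), the Prdm16 knockout (PRDM16 KO), the PR domain control (also WT, titled for exon 4) and the PR domain knockout (PR domain KO). Prdm16 encodes a zinc finger transcription factor with an N-terminal PR domain. The labels give no cell line, clone or sex and do not say whether replicates were separate cultures, and p-values therefore reflect only library-to-library spread, which may be technical. Knockout and clone cannot be told apart.

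The epiblast is the pluripotent layer that gives rise to the embryo proper. As it leaves the naive state of the early blastocyst it becomes primed, and switches on Otx2, Fgf5, Pou3f1 and the DNA methyltransferase Dnmt3b. Cells that enter the primitive streak under Wnt, Nodal and BMP signals then switch on T, Eomes and Mixl1, and cells at its anterior end switch on Gsc. In embryoid bodies this programme is known as an early and transient one, which precedes blood, heart, endoderm and neural derivatives. Several of the genes are used again later: Otx2 in the forebrain and midbrain, Fgf8 at signalling centres of the brain, Foxd3 in neural crest, Eomes in T and natural killer cells. In bulk RNA fewer cells of a type and less RNA per cell cannot be told apart.

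The bases before the start sites of T, Gsc, Eomes and Fgf5 are shown because T and Gsc had the lowest remainders in the Prdm16 knockout, and Eomes and Fgf5 had the lowest in the PR domain control among genes still detected there. Each is the 250 bases before the RefSeq start on GRCm38.p6, 5′ to 3′ on the strand of the gene. They lie at chr17:8434173-8434422 (plus), chr12:104473237-104473486 (minus), chr9:118477939-118478188 (plus) and chr5:98253934-98254183 (plus). Capitals mark matches to any of 6 short motifs searched on both strands.
T: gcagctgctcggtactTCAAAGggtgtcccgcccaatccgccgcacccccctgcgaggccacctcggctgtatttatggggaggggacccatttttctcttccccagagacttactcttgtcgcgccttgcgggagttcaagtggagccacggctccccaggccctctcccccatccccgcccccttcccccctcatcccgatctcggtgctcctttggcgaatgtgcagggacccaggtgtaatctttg
Gsc: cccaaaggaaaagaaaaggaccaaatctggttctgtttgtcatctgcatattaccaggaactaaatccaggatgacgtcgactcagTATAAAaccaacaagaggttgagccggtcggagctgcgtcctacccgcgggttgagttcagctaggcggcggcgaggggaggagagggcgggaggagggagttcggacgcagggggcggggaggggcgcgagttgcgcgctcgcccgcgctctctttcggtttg
Eomes: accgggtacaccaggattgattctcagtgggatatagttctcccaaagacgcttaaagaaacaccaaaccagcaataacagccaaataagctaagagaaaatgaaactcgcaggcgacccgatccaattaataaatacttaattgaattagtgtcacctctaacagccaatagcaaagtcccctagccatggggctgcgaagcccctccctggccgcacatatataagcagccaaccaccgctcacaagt
Fgf5: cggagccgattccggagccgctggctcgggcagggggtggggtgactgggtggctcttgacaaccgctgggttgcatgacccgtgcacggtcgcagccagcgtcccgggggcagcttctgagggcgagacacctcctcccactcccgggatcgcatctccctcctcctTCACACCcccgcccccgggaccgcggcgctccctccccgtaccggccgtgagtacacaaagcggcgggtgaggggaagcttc
The motifs were the OTX and GSC homeobox core TAATCC, the T-box core TCACACC, the TCF and LEF core CTTTGA, the FOXH1 core AATCCACA, the octamer ATGCAAAT and the TATA box TATAAA. They occur in 6.25%, 3.33%, 13.8%, 0.718%, 1.60% and 12.4% of 32851 RefSeq promoter windows of the same length, respectively. T held a TCF and LEF core as its reverse complement, 234 bases before the start. Gsc held the TATA letters 164 bases before the start, and Fgf5 a T-box core 82 bases before it. The Eomes window held none of the 6. RefSeq windows were found for 7 of the 10 genes. Of those not shown, Otx2 held the TATA letters at 1 of its starts and the homeobox core, as its reverse complement, at another, while Dnmt3b and Foxd3 held no match. A match here describes letters and is no sign of a factor at work. The windows of Fgf5 (70.8% G and C, 24 CpG) and Gsc (59.2%, 22 CpG) were richer in CpG than that of Eomes (46.4%, 8 CpG). The median window of the table had 52.4% G and C and 6 CpG.

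The libraries held 6273789 to 9086885 fragments on named loci. Levels are given as normalised fragments, that is fragments per locus divided by the authors' size factor of the library. The Prdm16 gene itself was at 24.4 and 26.3 in its control, at 11.2 and 1.10 in its knockout, 44.6 and 22.7 in the PR domain control, and 23.3 and 15.7 in the PR domain knockout. A count over the whole gene does not show the loss of 1 exon. Ddx3y, a Y-linked gene, was at 0 in both Prdm16 knockout libraries and at 491.9 to 1148 in the other 6. Markers of all germ layers were detected in every library, with endoderm markers (Afp, Ttr, Foxa2 and Sox17) at 1084.5 and 1133 fragments per 1000000 on named loci (FPM) in the Prdm16 control, 2428 and 2359 in its knockout, 325.5 and 334.4 in the PR domain control and 468.6 and 496.0 in the PR domain knockout. Of these 4 endoderm genes, 2 were higher in the Prdm16 knockout than in its control, and 2, Foxa2 and Sox17, did not pass the test. In the PR domain knockout 3 were higher than in its control and 1, Sox17, was lower. Mesoderm markers (Tnnt2, Myh6, Pecam1, Cdh5 and Hbb-bh1) stood at 938.8 and 949.7, 1078 and 1050.1, 1906 and 1952, and 1630 and 1562 in the same order of groups. Taken gene by gene, 4 of these 5 were lower and 1 higher in the Prdm16 knockout than in its control (median log2 fold change -0.46). The higher sum there thus does not stand for most of the markers. Ectoderm markers (Nes, Pax6 and Sox1) stood at 133.9 in each Prdm16 control library, 83.5 and 81.8 in its knockout, 188.2 and 187.0 in the PR domain control and 135.3 and 134.4 in the PR domain knockout. These are 3 of 4 ectoderm markers planned. Between the wild-type sets 2 of them were higher and 1 lower in the PR domain control, so the higher sum there does not stand for each marker. The lower one was Sox1 (-3.63 ± 0.56 on the log2 scale, limma adjusted p = 5.25e-06). The part of the germ layers in the results below was not tested.

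Mean levels of the 10 early genes were highest in the Prdm16 control. In both PR domain groups T, Eomes, Mixl1, Gsc and Foxd3 had 15 fragments or fewer over the group, while Dnmt3b had 324 and 280 and Otx2 138 and 48 in the control and the knockout. Summed, the 10 genes made up 270.2 and 268.1 FPM in the Prdm16 control and 102.5 in each library of its knockout. The sums were 39.0 and 36.4 in the PR domain control and 24.3 and 24.7 in the PR domain knockout. Dnmt3b gave most of each sum. Without it the sums were 101.4 and 107.0, then 25.8 and 24.7, then 16.9 and 15.4, then 8.63 and 8.47. The groups did not overlap on either sum.

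**Figure D1:**
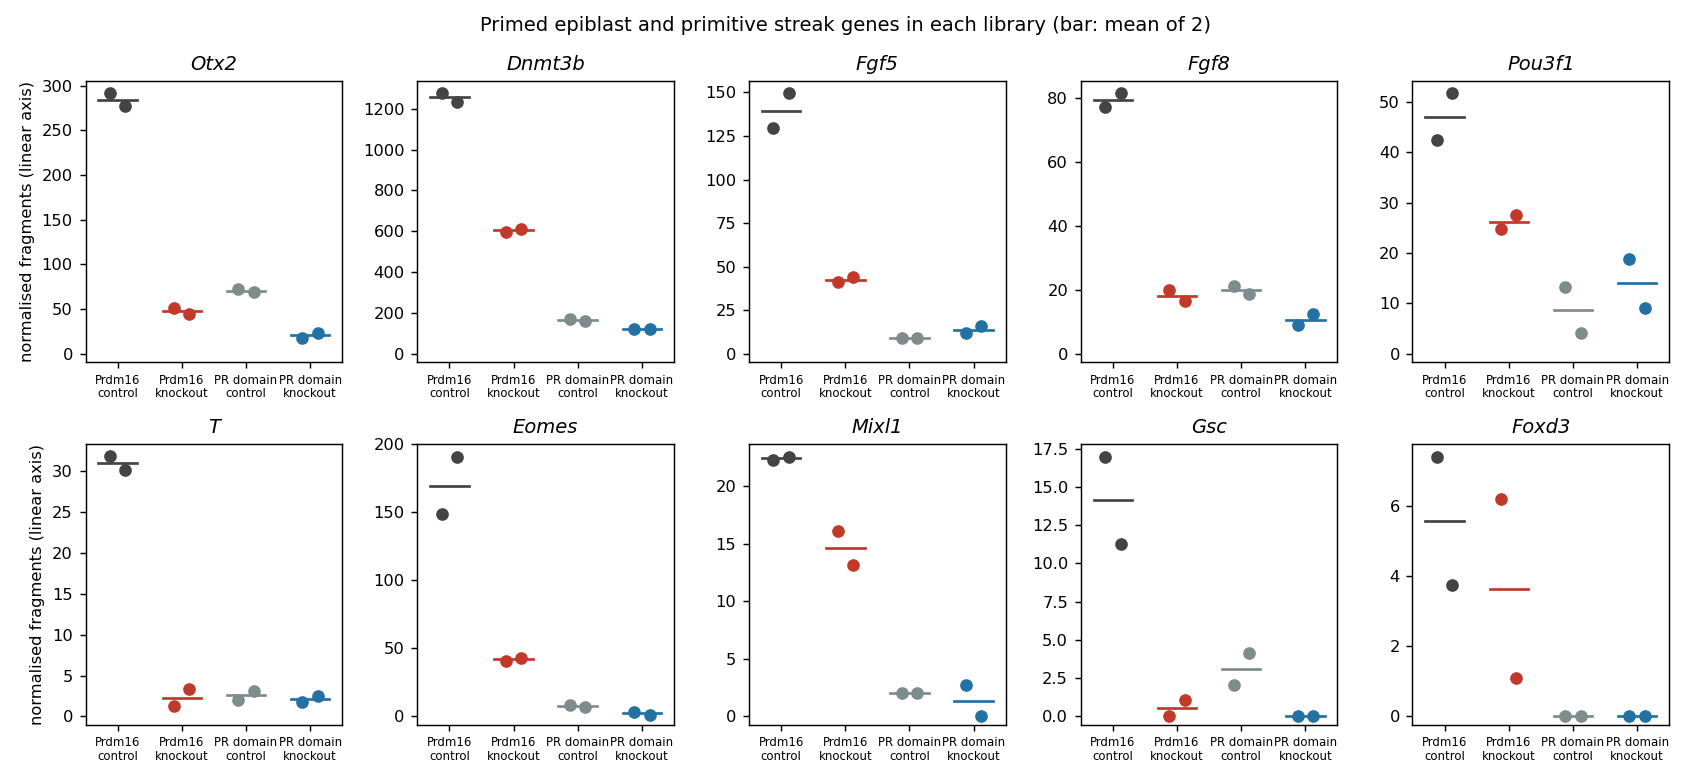
Normalised fragments (linear vertical axis, own scale per gene) of each of the 10 genes in the 8 libraries, with points for libraries and a bar for the mean of 2. In 10 of 10 panels the highest mean is that of the Prdm16 control, and Gsc and Foxd3 have no fragment in the PR domain knockout.

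Within the Prdm16 control the genes ranked by FPKM, which divides fragments by transcript length. Dnmt3b led at 42.0 ± 1.2 FPKM (SD, n = 2), followed by Otx2 (20.9 ± 1.06) and Fgf8 (14.1 ± 1.80). Fgf5 (6.75 ± 0.823) and Eomes (5.51 ± 0.971) came next and overlapped between libraries. T stood at 1.95 ± 0.0726, above Gsc (1.45 ± 0.412), Pou3f1 (1.41 ± 0.198) and Mixl1 (1.17 ± 0.0114), of which Gsc overlapped both of the others. Foxd3 was lowest at 0.288 ± 0.133. Dnmt3b had the highest mean FPKM of the 10 in the other 3 groups too, at 22.9 ± 1.18 in the Prdm16 knockout, 5.75 ± 0.966 in the PR domain control and 4.44 ± 1.24 in the PR domain knockout. In the PR domain control it overlapped Otx2 (4.85 ± 0.690). Otx2 and Fgf8 overlapped each other in the Prdm16 knockout (3.26 ± 0.410 and 3.10 ± 0.783 FPKM) and in the PR domain knockout (1.63 ± 0.652 and 2.27 ± 0.621).

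The first comparison set the Prdm16 knockout against its own control. Most of the early genes were lower in the knockout, but by very different amounts: T and Gsc were nearly gone, while Mixl1 and Pou3f1 did not pass the test. Of the 9 genes tested, 7 fell and 0 rose, where 39.1% of all 16623 loci were called, 18.0% higher and 21.1% lower. Their median log2 fold change was -1.98, against -0.03 over all loci. T and Gsc passed the filter on low values through the Prdm16 control alone, and Foxd3 did not pass it, so this count describes these genes and is no test of the list. The 7 calls are from limma on log2(normalised fragments + 1), adjusted over all loci.

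Among the epiblast regulators, the homeobox gene Otx2 had 291.6 and 277.4 normalised fragments in the control and 50.9 and 44.0 in the knockout. Otx2 thus lay far below the control in both knockout libraries, at -2.56 ± 0.19 on the log2 scale (SE, limma adjusted p = 4.03e-12). The Otx2 locus (chromosome 14, 48657677 to 48673819, minus strand, GRCm38) is joined in the table with the transcript model Gm49154, and Otx2os1 overlaps it on the opposite strand. No source used here gives the strand setting of the counting, so these cannot be separated. Dnmt3b, which lays down new DNA methylation in the epiblast (chromosome 2, 153649450 to 153687730), had 1278 and 1234 in the control and 596.8 and 611.7 in the knockout. It fell by 1.05 ± 0.08 on the log2 scale (limma adjusted p = 1.37e-11). An antisense gene, Dnmt3bos, overlaps its start. Pou3f1, a POU transcription factor of the primed epiblast and later of neural and Schwann cells, had 42.4 and 51.7 in the control and 24.8 and 27.5 in the knockout. The Pou3f1 libraries did not overlap, as for 67.8% of all loci, but the log2 fold change of -0.82 ± 0.40 did not pass (limma adjusted p = 0.107). It did pass with edgeR's quasi-likelihood test (-0.80, adjusted p = 0.0309) and with only the 4 libraries of the comparison in the fit (adjusted p = 0.0150). Over its 19 alternatives the adjusted p ranged from 0.0150 to 0.357. Foxd3, a forkhead repressor of epiblast and neural crest, had 7 and 4 fragments in the control and 5 and 1 in the knockout, which overlapped and were too few to test.

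The FGF ligands fell alike in direction. Fgf5, the ligand long used to mark the primed epiblast (chromosome 5, 98254184 to 98277030), had 129.3 and 149.5 normalised fragments in the control and 40.9 and 44.0 in the knockout. Its log2 fold change was -1.69 ± 0.27 (limma adjusted p = 9.63e-06). Fgf8, a ligand of the streak and later of brain signalling centres (chromosome 19, 45736798 to 45742915), had 77.4 and 81.8 in the control and 19.9 and 16.5 in the knockout. Fgf8 changed by -2.08 ± 0.30 (limma adjusted p = 2.06e-06). Of 13 receptors and targets of FGF signalling, 7 fell and 2 rose in this comparison, at a median of -0.17, where 39.1% of all loci were called. Il17rd, a membrane inhibitor of FGF signalling, fell by 1.17 ± 0.08 and the receptor gene Fgfr1 by 0.54 ± 0.05, while the receptor gene Fgfr3 rose by 0.79 ± 0.08 (limma adjusted p = 3.13e-13, 3.19e-10 and 2.49e-09).

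The streak transcription factors had from 4.18% (Gsc) to 65.0% (Mixl1) of the control level left. T, the T-box factor that defines the streak and notochord (chromosome 17, 8434423 to 8442496), had 30 and 32 fragments in the control, against 1 and 3 in the knockout. T had 7.55% of the control level left (exact 95% interval 1.99 to 20.3%, counting error only), and its change was -3.36 ± 0.59 on the log2 scale (limma adjusted p = 2.85e-05). Gsc, a homeobox repressor of the anterior streak (chromosome 12, 104471209 to 104473330), had 16 and 12 fragments in the control and 0 and 1 in the knockout. That left 4.18% (interval 0.102 to 25.3%), at -3.36 ± 0.77 on the log2 scale (limma adjusted p = 0.000841). Eomes, the other T-box factor of the streak (chromosome 9, 118478212 to 118486132), was a stronger gene, at 148.4 and 190.9 normalised fragments in the control and 40.9 and 42.9 in the knockout. Eomes retained 24.6% (interval 18.8 to 31.7%) and changed by -1.98 ± 0.37 (limma adjusted p = 6.64e-05). Mixl1, a homeobox gene switched on in the same nascent mesendoderm (chromosome 1, 180693043 to 180697034), had 22.3 and 22.6 in the control and 16.1 and 13.2 in the knockout. Mixl1 retained 65.0% (interval 38.2 to 108%), and its log2 fold change of -0.59 ± 0.58 did not pass (limma adjusted p = 0.454). The intervals of T and Mixl1 did not overlap, though the difference between these genes was not tested over libraries.

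**Figure D2:**
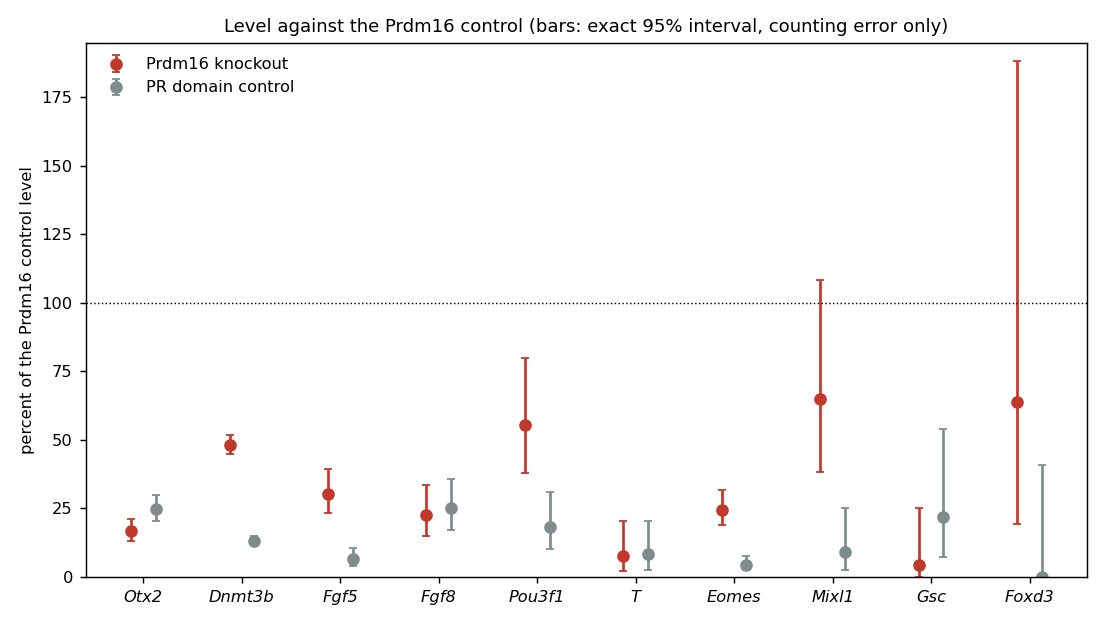
Level of each gene in the Prdm16 knockout (red) and the PR domain control (grey) as a percent of the Prdm16 control, from summed fragments, with exact 95% intervals that cover counting error only. In the Prdm16 knockout the values run from 4.18% (Gsc) to 65.0% (Mixl1), and in the PR domain control from 0% (Foxd3) to 25.02% (Fgf8).

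The second comparison set the PR domain knockout against its own control, where the early genes were already low. Otx2 and Dnmt3b fell further, and no gene of the 10 rose. Eomes and Fgf8 also fell, by calls that were lost in 5 and 15 of 19 alternatives. Of the 9 tested genes 4 fell, where 19.2% of all loci were called, 8.48% higher and 10.7% lower, and the median of the 9 was -0.66 against -0.03 over all loci. T, Gsc, Mixl1 and Eomes passed the filter on low values through libraries of the other set. Otx2 had 72.0 and 69.1 normalised fragments in the control and 17.9 and 23.2 in the knockout. It fell by 1.74 ± 0.19 on the log2 scale (limma adjusted p = 2.83e-08), to 29.3% of its control (exact 95% interval 20.6 to 40.9%). Dnmt3b went from 170.4 and 161.0 to 119.3 and 121.6, at -0.46 ± 0.08 (limma adjusted p = 0.000110). On log2(FPKM + 1) the Dnmt3b value was -0.32 and did not pass (adjusted p = 0.403).

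Fgf8 had 21.3 and 18.6 normalised fragments in the PR domain control and 8.97 and 12.4 in the knockout. The libraries did not overlap, as for 56.6% of all loci, and the log2 fold change was -0.85 ± 0.30 (limma adjusted p = 0.0460), but the call was lost in 15 of 19 alternatives, with adjusted p up to 0.420. Eomes had only 8 and 7 fragments in the PR domain control and 4 and 1 in the knockout. Its log2 fold change was -1.58 ± 0.37 (limma adjusted p = 0.00191). The call was lost in 5 of 19 alternatives, among them edgeR (-1.75, adjusted p = 0.0594) and the fit without PR domain knockout replicate 2 (-0.92, adjusted p = 0.0878), while it was -2.24 without PR domain knockout replicate 1. Fgf5 had 9.13 and 9.29 in the control and 11.7 and 15.7 in the knockout, and the value of 0.51 ± 0.27 did not pass (limma adjusted p = 0.213). Pou3f1 had 13.2 and 4.13 in the control and 18.8 and 9.10 in the knockout, so that the groups overlapped (0.73 ± 0.40, limma adjusted p = 0.228). The Pou3f1 value became 1.46 and passed when PR domain control replicate 1 was left out (adjusted p = 0.0198), and was -0.003 when replicate 2 of that group was.

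The remaining streak genes were near the counting limit in both PR domain groups. T had 2 and 3 fragments in the control and 2 and 3 in the knockout (-0.18 ± 0.59, limma adjusted p = 0.886), which overlapped. Mixl1 had 2 and 2 in the control and 3 and 0 in the knockout (-0.66 ± 0.58, limma adjusted p = 0.495). Gsc had 2 and 4 in the control and 0 in both knockout libraries, which allows up to 71.5% of the control level (exact 95% interval), and did not pass (limma adjusted p = 0.0739). Gsc did pass with edgeR's quasi-likelihood test (adjusted p = 0.0382) and without Prdm16 knockout replicate 1 (limma adjusted p = 0.0403). Foxd3 had 0 fragments in all 4 libraries.

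**Figure D3:**
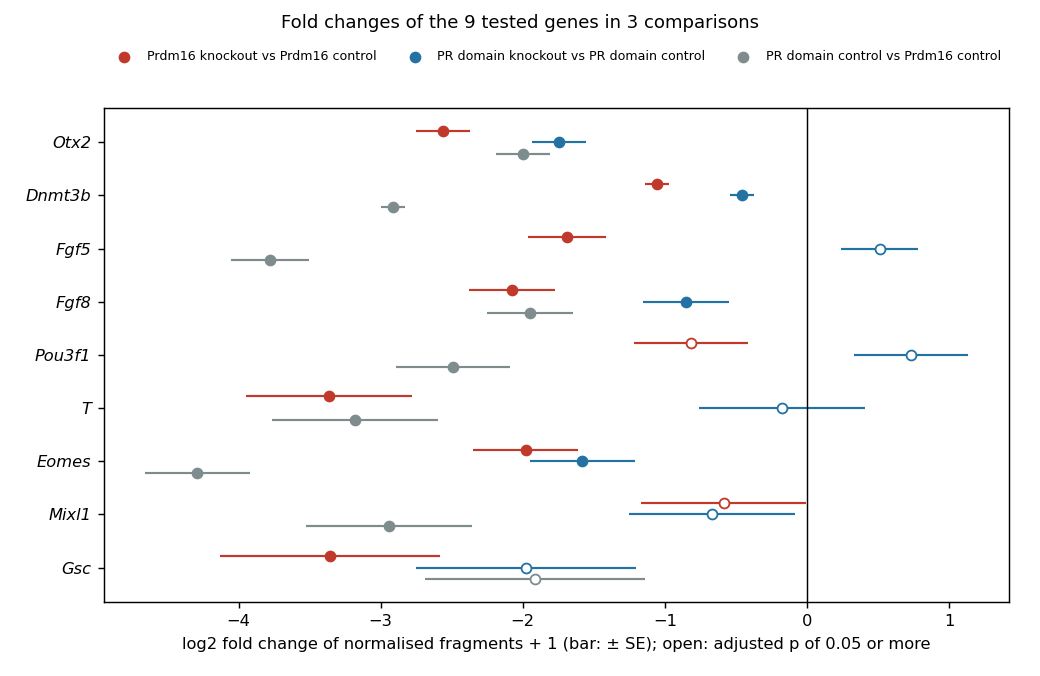
Log2 fold change ± SE of the 9 tested genes (rows) in 3 comparisons, on log2(normalised fragments + 1). Filled points passed at an adjusted p below 0.05: 7 in the Prdm16 knockout (red), 4 in the PR domain knockout (blue) and 8 between the wild-type sets (grey), each of them to the left of 0.

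The effects of the knockouts were compared directly as the Prdm16 knockout effect minus the PR domain knockout effect. This difference passed for 5 of 9 tested genes, each more negative in the Prdm16 knockout, where 16.4% of all loci passed and 7.81% did so in that direction, against 8.60% in the other. Fgf5 (-2.20 ± 0.39, limma adjusted p = 0.000116) and Dnmt3b (-0.60 ± 0.12, limma adjusted p = 0.000456) differed between the knockouts. The value for T was -3.19 ± 0.83 (limma adjusted p = 0.00728), but T passed the filter through the Prdm16 control alone and had 5 fragments in the PR domain control, too few for a fall as large as in the Prdm16 knockout, so this call does not show that the knockouts act differently on T. For Otx2 (-0.82 ± 0.27, limma adjusted p = 0.0338) and Fgf8 (-1.22 ± 0.43, limma adjusted p = 0.0486) the difference was lost in 10 and 12 of 18 alternatives. Eomes (-0.40 ± 0.52, limma adjusted p = 0.665), Mixl1 (0.08 ± 0.83, limma adjusted p = 0.965), Gsc (-1.38 ± 1.10, limma adjusted p = 0.443) and Pou3f1 (-1.55 ± 0.57, limma adjusted p = 0.0592) did not pass. The Pou3f1 difference passed in 5 of 17 alternatives (lowest adjusted p = 0.00563, at -2.28 without PR domain control replicate 1; -0.82 without replicate 2 of that group), and that of Eomes in 2 of 18 (lowest adjusted p = 0.0443).

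The wild-type sets, which carry the same genotype, background and day in the labels, were themselves far apart on these genes. This comparison shares its libraries with both knockout comparisons, so its values stand beside theirs and are no independent support. Of the 9 tested genes 8 were lower in the PR domain control than in the Prdm16 control and 0 higher, where 33.0% of all loci were called, 16.3% higher and 16.7% lower. The median of the 9 was -2.91, against 0.00 over all loci. T, Gsc, Mixl1 and Eomes passed the filter on low values through libraries of the Prdm16 set, so this count is no test of the list. Eomes was furthest down, at -4.29 ± 0.37 (limma adjusted p = 7.63e-11), with 4.49% of the Prdm16 control level (exact 95% interval 2.48 to 7.51%). The primed epiblast genes Fgf5 and Dnmt3b were at 6.57% (interval 3.84 to 10.6%) and 13.2% (11.7 to 14.8%), with limma adjusted p of 1.43e-12 and 8.57e-23. Mixl1 was at 9.12% (interval 2.38 to 25.02%, limma adjusted p = 0.000183) and T at 8.28% (2.60 to 20.4%, limma adjusted p = 7.12e-05). Otx2 and Fgf8 kept more, at 24.8% (interval 20.5 to 29.98%) and 25.02% (17.2 to 35.7%), with limma adjusted p of 7.28e-10 and 6.51e-06. Pou3f1 stood at 18.4% (interval 10.3 to 31.0%, limma adjusted p = 1.09e-05). Its log2 fold change of -2.49 ± 0.40 became -3.22 when PR domain control replicate 1 was left out and -1.75 when replicate 2 of that group was. Gsc, at 21.99% (interval 7.45 to 54.1%), did not pass (limma adjusted p = 0.0571) but did in 7 of 18 alternatives. Foxd3 had 11 fragments in the Prdm16 control and 0 in the PR domain control, which allows up to 40.9% of the Prdm16 control level (exact 95% interval).

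The order of what was left thus differed between both groups set against the same Prdm16 control. Mixl1, at 65.0% in the Prdm16 knockout, was at 9.12% in the PR domain control, and Dnmt3b, at 48.2% (exact 95% interval 44.8 to 51.8%), was at 13.2%. Eomes and Fgf5, at 24.6% and 30.4%, were at 4.49% and 6.57%. Otx2 and Fgf8 ran close to each other in both groups, at 16.6% and 22.7% in the Prdm16 knockout. T was low in both. These are values against shared libraries, and the difference between the 2 groups was not tested for any gene.

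Other genes of the same stages were read from lists chosen with earlier results of these data known. Their counts are to be read against the shares of all loci called in either direction, 39.1% in the Prdm16 knockout, 19.2% in the PR domain knockout and 33.0% between the wild-type sets. Some of these genes, such as Evx1, passed the filter on low values only through the Prdm16 set, so the counts are no test of the lists. Of 18 further primed epiblast genes, 17 were tested. In the Prdm16 knockout 11 fell and 2 rose, with a median of -0.86. Lin28b, an inhibitor of let-7 maturation, fell by 1.28 ± 0.09 on the log2 scale and Car14, a carbonic anhydrase, by 0.76 ± 0.09 (limma adjusted p = 1.47e-12 and 2.67e-08). Dnmt3a, the other de novo methyltransferase, rose by 0.28 ± 0.04 (limma adjusted p = 6.03e-06), opposite to Dnmt3b. In the PR domain knockout 7 fell and 0 rose, at a median of -0.36, led by Tdgf1, the Nodal co-receptor, at -2.11 ± 0.18 (limma adjusted p = 1.04e-10). Between the wild-type sets 14 were lower and 1 higher in the PR domain control, with a median of -1.43. Lin28a was at 2030 and 1983 in the Prdm16 control and at 552.7 and 534.6 in the PR domain control (-1.88 ± 0.06, limma adjusted p = 4.10e-22).

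Further streak and early mesoderm genes moved less evenly. Of 22 genes 14 were tested, and Msgn1 had no fragment in any library. In the Prdm16 knockout 4 fell and 2 rose, at a median of -0.67, a share near that of all loci (39.1%). The Notch ligand gene Dll1 fell by 1.83 ± 0.35, and the Wnt agonist gene Rspo3 rose by 0.79 ± 0.13 (limma adjusted p = 9.23e-05 and 1.21e-05). In the PR domain knockout 2 fell and 1 rose, at a median of -0.26, again near the share of all loci (19.2%). The LIM homeobox gene Lhx1 fell by 2.72 ± 0.38 (limma adjusted p = 2.38e-06), and Cdx2 rose by 0.70 ± 0.19 (limma adjusted p = 0.00643). Between the wild-type sets 9 were lower and 0 higher in the PR domain control, with a median of -1.91. Evx1, a homeobox gene of the posterior streak, changed by -3.72 ± 0.47 (limma adjusted p = 1.74e-07).

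Genes of the organiser and the anterior visceral endoderm, of which 11 of 12 were tested and Noto had no fragment, fell in 6 cases in the Prdm16 knockout and rose in 0, at a median of -0.42. The hedgehog ligand gene Shh fell by 1.76 ± 0.23 and the Wnt antagonist gene Dkk1 by 0.83 ± 0.13 (limma adjusted p = 3.43e-07 and 7.39e-06). In the PR domain knockout 4 fell and 1 rose, at a median of -0.15, and between the wild-type sets 5 were lower and 0 higher, at -0.67. The locus that joins the Nodal inhibitor genes Lefty1 and Lefty2, which counts in this list and among the streak genes, was lower in the PR domain control, at -3.07 ± 0.31 (limma adjusted p = 2.44e-09).

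Pluripotency genes differed in direction among themselves. Pou5f1, which encodes OCT4 and is active in both naive and primed cells, stood at 272.5 and 262.4 in the Prdm16 control and 151.4 and 128.7 in its knockout. It had 9.13 and 8.26 in the PR domain control and 15.3 and 17.4 in the PR domain knockout. Pou5f1 differed by -4.79 ± 0.22 between the wild-type sets (limma adjusted p = 1.55e-17). Nanog, a marker fixed for undifferentiated cells, had 85.9 and 83.7, then 50.9 and 57.2, then 8.11 and 6.19, then 4.49 and 9.10. Zfp42, which marks naive cells, had at most 7.44 normalised fragments in any library and was not tested. Of 18 naive and general pluripotency genes 10 were tested. They rose in 3 cases and fell in 3 in the Prdm16 knockout (median 0.10). The PR domain knockout had 4 that fell and 2 that rose (-0.48). Between the wild-type sets 6 were lower and 3 higher in the PR domain control (-0.997). Klf2, a naive factor also used in endothelium, was at 278.8 and 247.4 normalised fragments in the Prdm16 control and 660.2 and 645.0 in the PR domain control (1.31 ± 0.09, limma adjusted p = 9.39e-13). Klf4, another such factor also used in epithelia, rose by 0.80 ± 0.10 in the Prdm16 knockout (limma adjusted p = 1.79e-07). Summed, the list was higher in the Prdm16 knockout (301.7 and 294.3 FPM) than in its control (266.4 and 238.8), and was 197.3 and 191.8 in the PR domain control and 143.3 and 150.4 in the PR domain knockout. The higher sum in the Prdm16 knockout does not stand for the list as a whole, since as many tested genes fell as rose there. Pou5f1 was among those that fell (-0.93 ± 0.22, limma adjusted p = 0.000843).

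Otx2 and Fgf8 are also genes of anterior neural tissue. Of 22 other such genes 15 were tested, and in the Prdm16 knockout 12 fell, 1 rose and 2 did not pass, at a median of -2.36, where 39.1% of all loci were called. The gene that rose was Lhx2 (0.70 ± 0.12, limma adjusted p = 1.69e-05), named after its value was seen. Sox21 fell by 3.64 ± 0.35 and Lmx1b by 3.75 ± 0.61 (limma adjusted p = 1.19e-09 and 1.10e-05). In the PR domain knockout 3 fell and 0 rose (median -0.46), near the share of all loci (19.2%), and between the wild-type sets 9 were lower and 1 higher (-1.76). Several tested genes, Lmx1b and Sox1 among them, had a mean of at least 10 normalised fragments only in the Prdm16 control. Their entry into the test thus depended on a high control, so these counts and medians describe the genes and are no test of the list. Summed over the list, the level was 116.8 and 119.1 FPM in the Prdm16 control and 66.5 and 62.3 in its knockout. It was 78.0 and 76.6 in the PR domain control and 48.4 and 55.5 in the PR domain knockout, and no gene of the list was at 0 in every library. The part of neural cells in the Otx2 and Fgf8 values was not tested. Markers of T and natural killer cells, which use Eomes, summed to 20.03 to 31.7 FPM over all libraries, with Cd3e, Cd3g, Ncr1 and Gzmb at 0 in each. Only 2 of these 11 genes were tested, and both fell in the Prdm16 knockout, by 1.00 ± 0.27 and 0.36 ± 0.13 (limma adjusted p = 0.00337 and 0.0271). These calls were lost in 2 and 8 of 19 alternatives. In the PR domain knockout 0 of 2 passed, and 1 was lower in the PR domain control than in the Prdm16 control.

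The genes whose profile lay closest to members over the 8 libraries were found by the root mean square difference of centred log2 levels, as a description. Closest to Otx2 were Cyp26a1, a retinoic acid hydroxylase gene (0.33), and Fgf8 (0.38). Closest to Dnmt3b were Pim2 (0.27), Cfc1, a Nodal co-receptor gene (0.29), and Foxh1, a SMAD partner gene (0.33). Fgf5 lay nearest to the amino acid transporter gene Slc7a3 (0.30), Fgf8 to the adhesion gene Nrcam (0.25) and Pou3f1 to Ano9 (0.38). Among the streak genes, T lay nearest to Cntnap2 (0.53), Eomes to Vrtn (0.64) and Lhx1 (0.70), and Gsc to Cyp26a1 (0.73).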

How the data were processed

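RNA-seq libraries were aligned and quantified by the authors with tools that include TopHat2 2.1.1, SAMtools 1.5 and Cufflinks 2.2.1 on mm10, per the submitters' processing notes. The deposited main table gives a signal per locus, fragments divided by 1 size factor per library, as read from the values. Dividing by that factor gave whole fragments, within 0.1, for at least 99.99% of values in each library. The authors' deposited FPKM values gave levels between genes. Loci without a name held 1.88 to 2.53% of fragments and were left out. The 16623 loci that reached 10 normalised fragments in 2 or more libraries were tested with limma 3.58.1 (trend) on log2(value + 1) in R 4.3.3, with 4 group means over the 8 libraries and Benjamini-Hochberg adjustment, and called at an adjusted p below 0.05. Fold changes on this scale understate those of low genes. The edgeR 4.0.16 quasi-likelihood test on the recovered fragments was an alternative and called 6470, 3418 and 5663 loci in the Prdm16 knockout, the PR domain knockout and between the wild-type sets. DESeq2 1.42.0, other scalings, filters and pseudocounts, the replicate block and leaving out each library were the others. Ratios of summed fragments carry exact 95% intervals from counting error only. Annotation was GENCODE M21. The members and lists were chosen with earlier results of these data known. The text names all members, Prdm16, up to 3 called genes per list and comparison with the smallest adjusted p, and loci nearest in profile; 1 gene is not reported here. Ddx3y, Nanog and Zfp42 were added after their values were seen. Lists of neural crest, germ cell and trophoblast genes are described at the close.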

Additional observations from a re-analysis of the deposited data

Results flagged for a closer look

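A test of the difference between the knockout effects, with limma over all 8 libraries, passed for 5 early genes in the main fit. The difference, Prdm16 knockout effect minus PR domain knockout effect, was -3.19 for T, -2.20 for Fgf5, -1.22 for Fgf8, -0.82 for Otx2 and -0.60 for Dnmt3b on the log2 scale. For Fgf8 and Otx2 the call was lost in 12 and 10 of 18 alternatives. Fgf5 was lower in both Prdm16 knockout libraries than in their controls and higher in both PR domain knockout libraries than in theirs. Libraries were separated in this way, in either direction, for 67.8% and 56.6% of all loci in these comparisons. The Fgf5 fall passed (limma adjusted p = 9.63e-06). The rise, from 9 and 9 to 13 and 19 fragments, did not (0.51 ± 0.27, limma adjusted p = 0.213), so opposite effects on Fgf5 are not shown. The starting levels differed: Fgf5 had 281 fragments in the Prdm16 control and 18 in the PR domain control, and T had 62 and 5. From 5 fragments T could not have fallen as far as in the Prdm16 knockout, so its value does not show that the knockouts act differently on it. The part of the starting levels in the other differences was not tested.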

How the results depend on the processing

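The 7 calls in the Prdm16 knockout and the 8 between the wild-type sets held their direction and call under every alternative that gave a value. The alternatives moved the counts of calls. Main counts of loci were 6502 (Prdm16 knockout), 3190 (PR domain knockout), 2728 (difference) and 5481 (wild-type sets). They were 2244, 582, 199 and 1717 on log2(FPKM + 1), 3983, 1797, 1179 and 3388 with DESeq2, and the difference gave 1642 without a filter. The share of calls that were higher was 44.2% in the PR domain knockout and 54.4% with median-ratio scaling, and 52.4% for the difference and 37.0% with total-fragment scaling. The count of early genes called in the PR domain knockout was 4 in the main fit. It was 1 on log2(FPKM + 1), 2 with only its own libraries and 2 with DESeq2. For the difference the count was 5 in the main fit, 1 on log2(FPKM + 1), 3 without a filter, 3 with edgeR and 2 with DESeq2. These counts cover all early genes, not only those called in the main fit.

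With the replicate block, 6438, 3149, 2686 and 5442 loci and 7, 3, 5 and 8 early genes were called. Same-numbered libraries did not vary together (correlations of 0.00797 and 0.0340 between each control and its knockout). Values that were not called turned direction in low genes. With 1 library left out, the PR domain knockout effect ran from -0.00299 to 1.46 for Pou3f1, -0.39 to 0.043 for T and -1.61 to 0.28 for Mixl1. The difference ran from -1.06 to 0.26 for Eomes and -0.86 to 1.02 for Mixl1, and Prdm16 from -0.15 to 0.79 between the wild-type sets. The Mixl1 difference was -0.30 with a pseudocount of 5 and -0.25 on log2(FPKM + 1), and that of Gsc was 0.40 with edgeR. The cause was not tested. With 2 libraries a group and 5 or fewer fragments for T, Mixl1 and Foxd3 in each PR domain group, changes there are limited by depth.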

Other observations

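Genes of neighbouring lineages were read in the same way, against 39.1%, 19.2% and 33.0% of all loci called in the Prdm16 knockout, the PR domain knockout and between the wild-type sets. The neural crest count in the Prdm16 knockout was near that share. Of 17 neural crest genes, which use Foxd3, 12 were tested: 5 fell and 0 rose in the Prdm16 knockout (median -0.52), 4 fell and 0 rose in the PR domain knockout (-0.32), and 5 were lower and 1 higher in the PR domain control than in the Prdm16 control (-0.14). Twist1, a basic helix-loop-helix gene of crest and mesoderm, fell in both knockouts, by 1.18 ± 0.12 (Prdm16) and 0.78 ± 0.12 (PR domain) on the log2 scale (limma adjusted p = 2.27e-09 and 7.45e-06).

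Of 9 primordial germ cell genes only 4 were tested, of which 3 fell and 0 rose without Prdm16, 2 fell and 0 rose without the PR domain, and 1 was lower in the PR domain control. Tfap2c, an AP-2 factor of germ cells and trophoblast, fell by 2.82 ± 0.51 in the Prdm16 knockout (limma adjusted p = 4.40e-05). The other germ cell calls of that comparison were less stable, lost in 12 of 19 and 5 of 18 alternatives. Of 11 trophoblast genes, among which Prl2c2 had no fragment, 5 were tested. In the Prdm16 knockout 3 rose and 2 fell, in the PR domain knockout 2 rose and 2 fell, and between the wild-type sets 1 was higher and 3 lower in the PR domain control. Hand1, a gene of trophoblast and lateral mesoderm, rose by 0.57 ± 0.06 in the Prdm16 knockout and fell by 0.28 ± 0.06 in the PR domain knockout (limma adjusted p = 4.63e-09 and 0.000682). That difference passed too (0.85 ± 0.08, limma adjusted p = 7.68e-09).

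Of the 13 FGF receptors and targets, 9 fell and 0 rose in the PR domain knockout (median -0.30), and 4 were lower and 1 higher in the PR domain control than in the Prdm16 control (-0.06). Dusp4, a phosphatase gene induced by FGF signals, fell by 0.86 ± 0.07 in the PR domain knockout (limma adjusted p = 3.29e-11).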
